A study of Mus musculus with 24 samples.

Results

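Serum response factor (Srf) and the genes that work with it were followed in mouse embryos with and without Prdm6 in the neural crest, in a pair of outflow vessels, the ductus arteriosus (DA) and the ascending aorta. The set was chosen by gene symbol and holds 10 genes out of 54752 in the expression table: Srf itself, the cofactors Myocd, Mrtfa and Mrtfb, the MEF2 factors Mef2a, Mef2c and Mef2d, the zinc finger factor Klf4, and the ETS factors Elk1 and Elk3. All 10 passed the filter on low counts and were tested. Whole vessels were taken at E18.5, on a C57BL/6 background. Prdm6-deficient embryos were Wnt1Cre;PRDM6f/f, so that Cre was driven by the Wnt1 promoter, which is active in the neural crest and its descendants. Control embryos were PRDM6wt/f or PRDM6wt/wt without Cre, except for a Wnt1Cre;PRDM6wt/wt embryo that gave replicate 2 of control DA and replicate 3 of control aorta. The DA gave 5 Prdm6-deficient and 7 control libraries, and the aorta 5 Prdm6-deficient and 6 control libraries. Prdm6-deficient DA replicates 1 and 2 were each made from 2 pooled embryos, and the labelled replicate 4 of this group was not analysed here.

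SRF is a MADS-box transcription factor that binds CArG boxes, and by itself it gives little smooth muscle selectivity. Myocardin (Myocd) and the myocardin-related factors MRTF-A (Mrtfa) and MRTF-B (Mrtfb) bind SRF and drive the contractile genes of smooth muscle cells (SMCs), and the MRTFs move to the nucleus when the pool of free actin monomer shrinks. The ternary complex factors Elk1 and Elk3 compete for the same surface of SRF and link it to growth factor signals and immediate early genes, while Klf4 represses the contractile genes and the MEF2 factors, MADS-box relatives of SRF, bind AT-rich sites of their own and can activate Myocd.

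The promoter windows below are shown because they belong to the genes on which the results turn or hold a motif of the pathway, each read from 5′ to 3′ on the strand of the gene and taken from RefSeq on GRCm38.p6. The Srf window is chr17:46556193-46556272 on the minus strand, bases -110 to -31 from the start, with its CArG boxes in capitals. The Mef2c window is chr13:83503924-83504003 on the plus strand, also -110 to -31, with GGAATG, which is CATTCC read on the opposite strand and the core to which TEAD factors bind, in capitals. The Mef2a window is chr7:67372850-67372878 on the minus strand, -20 to 9, with a MEF2 site in capitals.
Srf: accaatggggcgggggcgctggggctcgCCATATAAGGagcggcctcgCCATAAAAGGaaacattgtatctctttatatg
Mef2c: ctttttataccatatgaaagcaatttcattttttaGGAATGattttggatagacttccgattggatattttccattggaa
Mef2a: ctggccgaggcctgactcCTAAAAATAGc

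RefSeq windows of 250 bases before to 50 bases after a start were found for 9 of the 10 genes, 14 windows in all, and both strands were searched. A CArG box lay in 1 of the 14 windows, that of Srf, which held 2 of them starting at -82 and -62, and in 1.63% of 32851 mouse windows. MEF2 sites lay in the windows of Mef2a and Mrtfb, at -2 and -165, and in 3.19% of all windows. The sequence CATTCC, on either strand, lay in the windows of Mef2c and Mrtfb, at -75 and -81, and in 14.7% of all windows. These are matches of letters and not measured binding sites.

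Between 15163974 and 22610547 counts were assigned to genes in each library, and 3 counts, the smallest number taken as detected, stood for 0.133 to 0.198 CPM, the counts scaled to library size by the TMM method. All 10 genes were far above this level in every library. The animal numbers of the embryos formed 2 runs, referred to as the first and second series, and values within each series stand beside the pooled ones. Prdm6 transcript, summed over the whole gene, fell by 0.57 on the log2 scale in Prdm6-deficient DA (edgeR adjusted p = 5.5e-04) and by 0.69 in Prdm6-deficient aorta (edgeR adjusted p = 1.7e-04), with no overlap of the groups in either vessel. Control DA replicate 1 stood apart from the other control DA libraries. Its cardiomyocyte markers summed to 1209 CPM against 26.2 to 197 CPM in the other control DA libraries, and its skeletal muscle markers to 228 CPM against 51.3 to 84.0 CPM, so the results that rest on it are also given without it. Libraries of a group came from different embryos, while 6 control and 4 Prdm6-deficient embryos gave both vessels, 2 of the latter through the pooled Prdm6-deficient DA replicate 2.

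In control DA, Srf was the most abundant of the 10 transcripts per length and Mrtfb the least abundant. Levels between genes were compared as CPM per kilobase of the longest annotated transcript. The median level in control DA was 36.3 for Srf (range 21.6 to 39.8), 26.5 for Mef2a, 19.3 for Elk3, 16.8 for Klf4, 16.6 for Mef2d, 9.92 for Mef2c, 8.71 for Mrtfa, 6.78 for Elk1, 5.82 for Myocd and 2.52 for Mrtfb. Of the 9 neighbouring pairs in this order, 3 did not overlap in their ranges over the libraries, namely Mef2a above Elk3, Mef2d above Mef2c and Myocd above Mrtfb. Myocardin was below the broadly expressed Mrtfa by median and above Mrtfb on this scale.

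The order of the medians was the same in control aorta, where Srf (median 26.3 CPM per kilobase, range 22.2 to 31.5) and Mef2a (23.7, range 20.0 to 26.1) overlapped at the top. In Prdm6-deficient DA, Mef2a (24.7), Srf (24.1) and Elk3 (24.0) lay within 1 unit of each other, and Myocd (3.02, range 2.55 to 5.60) overlapped with Mrtfb (2.59, range 1.90 to 3.62). The order between genes depends on the transcript length used. With the mean length of the annotated transcripts in place of the longest, 2 pairs of neighbours in control DA did not overlap, Mrtfa above Myocd and Elk1 above Mrtfb.

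**Figure D1:**
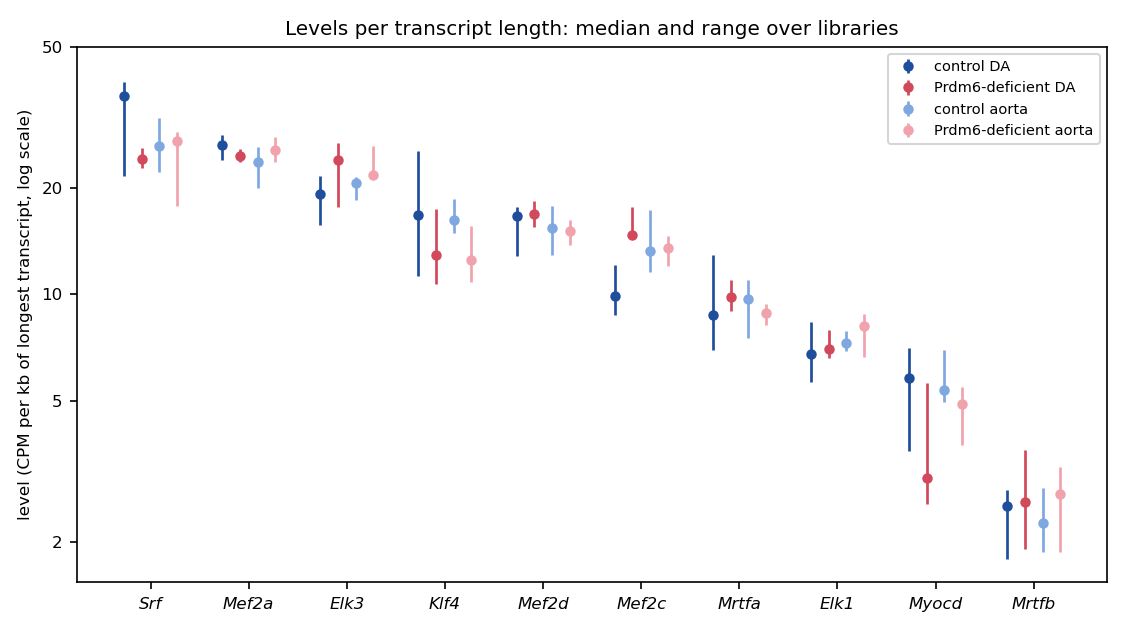
Median level of each of the 10 genes in each group, in CPM per kilobase of the longest transcript on a log axis, with bars from the lowest to the highest library; genes are ordered by their median in control DA. Srf stands highest in control DA at 36.3, and Myocd drops from 5.82 in control DA to 3.02 in Prdm6-deficient DA, to a range that overlaps with Mrtfb.

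The first comparison asked whether transcripts of the SRF machinery itself differed in the DA without Prdm6. Among the 10 genes, Srf fell and Mef2c rose, and Myocd had a larger negative fold change than Srf that did not pass the test. A gene was called when its adjusted p was below 0.01 and its log2 fold change was larger than 0.5 in size. By this rule 2 of the 10 genes were called, against 5.43% of the 16463 genes tested. Without control DA replicate 1, 3 of the 10 were called, Myocd being added.

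Srf (ENSMUSG00000015605.6, mm10 chr17:46548329-46556175, minus strand) was measured at 59.6, 62.2, 67.8, 65.6 and 63.1 CPM in Prdm6-deficient DA replicates 1, 2, 5, 6 and 7. In the 7 control DA libraries it ranged from 56.4 to 104 CPM, with a median of 94.9. All 5 Prdm6-deficient libraries lay below 6 of the 7 control libraries, and the groups overlapped only through control DA replicate 1, the library with the high cardiac and skeletal muscle markers. The mean was 63.7 ± 3.16 CPM (SD, n = 5) against 90.4 ± 16.3 CPM (SD, n = 7), a log2 fold change of -0.51 (SE 0.12, 95% interval -0.76 to -0.25, edgeR adjusted p = 0.00625). The change lay close to the fold threshold and the call was not firm. Srf lost its call when any of the 5 Prdm6-deficient DA libraries, or control DA replicate 2, 3, 5, 6 or 7, was left out, with values from -0.53 to -0.47 and edgeR adjusted p from 0.0105 to 0.0203. Without control DA replicate 1 the log2 fold change was -0.59 (edgeR adjusted p = 1.6e-04). In the first series alone it was -0.62 and in the second -0.48, with edgeR adjusted p of 0.0565 and 0.355. The lincRNA Gm26904 overlaps Srf on the opposite strand, and nothing states that reads were counted by strand.

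Myocd (ENSMUSG00000020542.18, chr11:65176561-65269989, minus strand) was at 15.5, 13.1, 28.6, 15.2 and 20.0 CPM in the same 5 Prdm6-deficient DA libraries. Control DA ranged from 18.5 to 36.1 CPM with a median of 29.7. Prdm6-deficient DA replicates 5 and 7 lay within the control range. Control DA replicates 1, 2 and 4 lay within the Prdm6-deficient range, so the groups overlapped at both ends. The mean was 18.5 ± 6.22 CPM (SD, n = 5) against 28.8 ± 6.66 CPM (SD, n = 7), a log2 fold change of -0.64 (SE 0.18, 95% interval -1.01 to -0.27), and the edgeR adjusted p of 0.0167 missed the threshold. In the first series alone the value was -0.58, and -0.79 in the second. Leaving out Prdm6-deficient DA replicate 5 gave -0.86 (edgeR adjusted p = 0.00103) and leaving out control DA replicate 1 gave -0.72 (edgeR adjusted p = 0.00469), either of which would pass, as did DESeq2 on all libraries (adjusted p = 0.00586). In whole vessels, fewer SMCs and less RNA per SMC cannot be told apart, here and for every gene below.

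The remaining cofactors were higher by sign and did not pass the test. Mrtfa (ENSMUSG00000042292.16, chr15:81012281-81190757, minus strand) was at 39.5 to 48.2 CPM in Prdm6-deficient DA and 30.6 to 56.8 CPM in the controls, a log2 fold change of 0.15 (95% interval -0.10 to 0.39, edgeR adjusted p = 0.511). Mrtfb (ENSMUSG00000009569.14, chr16:13256481-13417529, plus strand) was at 15.8 to 30.1 CPM against 14.8 to 23.2 CPM, a log2 fold change of 0.12 (95% interval -0.22 to 0.46, edgeR adjusted p = 0.747). Neither interval overlapped that of Myocd. The transcripts of Mrtfa overlap the coding gene Sgsm3 on the opposite strand. MRTF activity depends on where the protein lies in the cell, which transcript counts do not measure.

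Mef2c (ENSMUSG00000005583.16, chr13:83504034-83667080, plus strand), a MEF2 factor needed in heart, vessel and neural crest development, was at 89.8, 92.6, 96.6, 91.5 and 111 CPM in the Prdm6-deficient DA libraries. Control DA ranged from 54.8 to 75.9 CPM with a median of 62.2. Every Prdm6-deficient library lay above every control library. A lack of overlap between the groups, in either direction, was found for no other of the 10 genes and for 5.66% of all genes tested. The mean was 96.2 ± 8.38 CPM (SD, n = 5) against 64.2 ± 9.13 CPM (SD, n = 7), a log2 fold change of 0.58 (SE 0.10, 95% interval 0.37 to 0.80, edgeR adjusted p = 2.3e-04). The call held with each of the 23 libraries left out in turn (0.53 to 0.63). Within the first and second series the values were 0.58 and 0.63, with edgeR adjusted p of 0.0993 and 0.0735 in these smaller fits.

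The other MEF2 genes did not pass the test. Mef2a (ENSMUSG00000030557.17, chr7:67231163-67372858, minus strand) averaged 137 ± 5.62 CPM (SD, n = 5) without Prdm6 and 144 ± 8.02 CPM (SD, n = 7) in controls, with a 95% interval of the log2 difference from -0.21 to 0.06. Mef2d (ENSMUSG00000001419.17, chr3:88142372-88172086, plus strand) was at 90.8 ± 5.93 against 85.1 ± 10.8 CPM, with an interval from -0.09 to 0.27. Both intervals ended below the 0.58 of Mef2c. Mef2c made up a median of 26.0% of the summed per-length level of the 3 MEF2 transcripts in Prdm6-deficient DA (25.5% to 30.1%) and 19.5% in control DA (17.1% to 22.7%), a pair of ranges that did not overlap. In the aorta this share was 25.1% in Prdm6-deficient and 25.6% in control libraries by median. For the cofactors, Myocd made up 21.7% (17.7% to 29.4%) of the per-length sum of Myocd, Mrtfa and Mrtfb in Prdm6-deficient DA, 34.0% (26.4% to 38.4%) in control DA, 29.0% in Prdm6-deficient aorta and 33.8% in control aorta. These shares are descriptions and were not tested.

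Klf4 (ENSMUSG00000003032.8, chr4:55527143-55532466, minus strand) was spread widely in control DA, from 34.0 to 76.7 CPM, and from 32.3 to 52.8 CPM in Prdm6-deficient DA. Its log2 fold change was -0.24 (95% interval -0.59 to 0.11, edgeR adjusted p = 0.433), with -0.67 in the first series and 0.01 in the second. The libraries with high and low Klf4 were thus not separated by genotype. Elk3 (ENSMUSG00000008398.15, chr10:93247414-93311135, minus strand), also known as Net and expressed in vascular cells, was at 96.3, 113, 74.3, 101 and 105 CPM in Prdm6-deficient DA and 66.0 to 91.2 CPM in control DA. Its log2 fold change was 0.30 (95% interval 0.11 to 0.49, edgeR adjusted p = 0.0334), which missed the threshold, and it was 0.01 in the first series and 0.52 in the second. Only Prdm6-deficient DA replicate 5, of the first series, lay inside the control range. Elk1 (ENSMUSG00000009406.13, chrX:20933395-20950608, minus strand) was at 25.4 ± 1.85 against 25.3 ± 3.49 CPM, a log2 fold change of 0.01 (95% interval -0.20 to 0.22). Over the 10 genes the median log2 fold change was 0.05, against 0.01 over all genes tested, and 6 of the 10 were higher by sign.

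**Figure D2:**
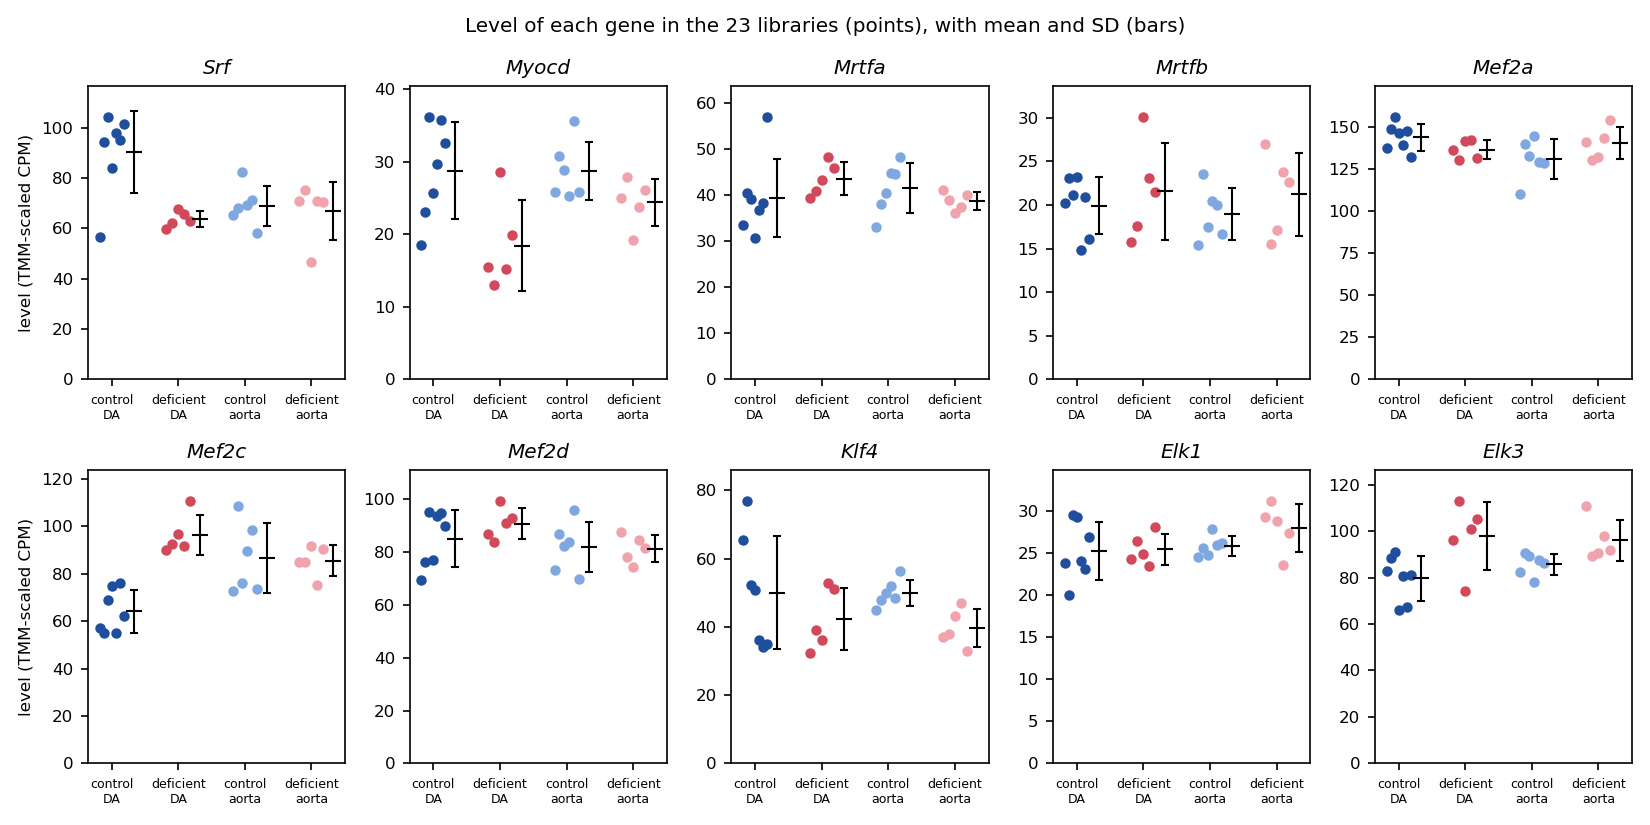
Level of each of the 10 genes, in TMM-scaled CPM, in each of the 23 libraries (points), with the mean and SD of each group (bars). In control DA the Srf points sit between 56.4 and 104 with replicate 1 lowest, the Prdm6-deficient DA points between 59.6 and 67.8, and for Mef2c every Prdm6-deficient DA point (89.8 or more) lies above every control DA point (75.9 or less).

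In the ascending aorta, where SMCs of the neural crest also populate the wall, none of the 10 genes was called between Prdm6-deficient and control embryos. The count was 0 by edgeR, DESeq2 and limma-voom alike, against 2.45% of all genes tested by edgeR, and 0 of the 10 had an unadjusted p under 0.05. Srf was at 70.9, 75.4, 46.5, 71.0 and 70.6 CPM in Prdm6-deficient replicates 1 to 5 and 58.0 to 82.3 CPM in control aorta, with a median of 68.7. Replicate 3 was the lowest of all 23 libraries, and the other 4 Prdm6-deficient libraries lay within the control range. The log2 fold change was -0.04 (95% interval -0.31 to 0.22, edgeR adjusted p = 0.970), and 0.12 within the second series.

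Myocd was at 25.1, 27.9, 19.2, 23.8 and 26.1 CPM in Prdm6-deficient replicates 1 to 5 and from 25.4 to 35.6 CPM in the controls, a log2 fold change of -0.24 (95% interval -0.61 to 0.14, edgeR adjusted p = 0.698). The same replicate 3, lowest of all libraries for Srf, was for Myocd the lowest of its own group but not of all libraries. It came from the embryo of Prdm6-deficient DA replicate 5, which had the highest Srf and Myocd of its own group. Mef2c was at 75.2 to 91.9 CPM in Prdm6-deficient and 72.6 to 109 CPM in control libraries, a log2 fold change of -0.02 (95% interval -0.24 to 0.20). Klf4 had the largest difference of the 10 by size, at 39.6 ± 5.60 CPM (SD, n = 5) against 49.9 ± 3.87 CPM (SD, n = 6), a log2 fold change of -0.33 (95% interval -0.70 to 0.03, edgeR adjusted p = 0.424). Within the second series Klf4 stood at -0.48 (edgeR adjusted p = 0.0111). Elk3 was at 0.17, Mrtfb at 0.16, Elk1 at 0.12, Mef2a at 0.10, Mef2d at -0.02 and Mrtfa at -0.10 on the log2 scale. The first series held 1 control aorta library and gave no value of its own.

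Control DA and control aorta were compared to ask how the vessels differ with Prdm6 present. None of the 10 genes was called by edgeR, DESeq2 or limma-voom, against 5.36% of all genes tested by edgeR, although 3 of the 10 had an unadjusted p under 0.05. Srf ranged from 56.4 to 104 CPM in control DA (median 94.9) and from 58.0 to 82.3 CPM in control aorta (median 68.7), a difference of 0.39 on the log2 scale (95% interval 0.15 to 0.63), and its edgeR adjusted p of 0.0270 missed the threshold. Mef2c differed by -0.43 on the log2 scale (95% interval -0.64 to -0.23), with an edgeR adjusted p of 0.00336 that passed while the fold did not. Mef2a was at 0.14 (edgeR adjusted p = 0.195). Myocd averaged 28.8 ± 6.66 CPM (SD, n = 7) in the DA and 28.7 ± 3.98 CPM (SD, n = 6) in the aorta of controls, a log2 difference of 0.00 (95% interval -0.34 to 0.34). Without control DA replicate 1 these differences were 0.48 for Srf (edgeR adjusted p = 0.00101, with the fold still under the threshold), -0.41 for Mef2c (edgeR adjusted p = 0.00788) and 0.08 for Myocd (edgeR adjusted p = 0.844). Mrtfa, Mrtfb, Mef2d, Klf4, Elk1 and Elk3 lay between -0.10 and 0.07.

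Between Prdm6-deficient DA and Prdm6-deficient aorta none of the 10 genes was called by the same 3 tools, against 0.267% of all genes tested by edgeR (44 genes, and 22 to 58 with each library left out in turn), and 1 of the 10, Myocd, had an unadjusted p under 0.05. Srf differed by -0.07 (95% interval -0.34 to 0.20), Mef2c by 0.17 (95% interval -0.06 to 0.40) and Myocd by -0.40 (95% interval -0.79 to -0.01, edgeR adjusted p = 0.479). The comparisons share groups with each other. Control DA enters both the first and the third, so the Srf values of -0.51 and 0.39, and the Mef2c values of 0.58 and -0.43, rest in part on the same 7 libraries.

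Whether the genotype difference in the DA was itself unlike that in the aorta was tested as an interaction, called at an adjusted p below 0.01. None of the 10 genes passed by edgeR, against 2.65% of all genes tested, and 2 of the 10 had an unadjusted p under 0.05. For Mef2c the difference between the effects was 0.60 on the log2 scale (SE 0.15, 95% interval 0.29 to 0.91, edgeR adjusted p = 0.0151), and it passed with DESeq2 (adjusted p = 0.00501) and limma-voom (adjusted p = 0.00988). It also passed in edgeR without control DA replicate 4 or 6 or control aorta replicate 1 or 6, at adjusted p from 0.00686 to 0.00939. For Srf it was -0.46 (95% interval -0.82 to -0.10, edgeR adjusted p = 0.156) and for Myocd -0.40 (95% interval -0.92 to 0.12, edgeR adjusted p = 0.495). Without control DA replicate 1 the values were -0.55 for Srf (edgeR adjusted p = 0.0200), 0.58 for Mef2c (edgeR adjusted p = 0.0221) and -0.49 for Myocd (edgeR adjusted p = 0.307), and none of them passed. The drop of Srf in the DA was thus not shown to differ from its value in the aorta.

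**Figure D3:**
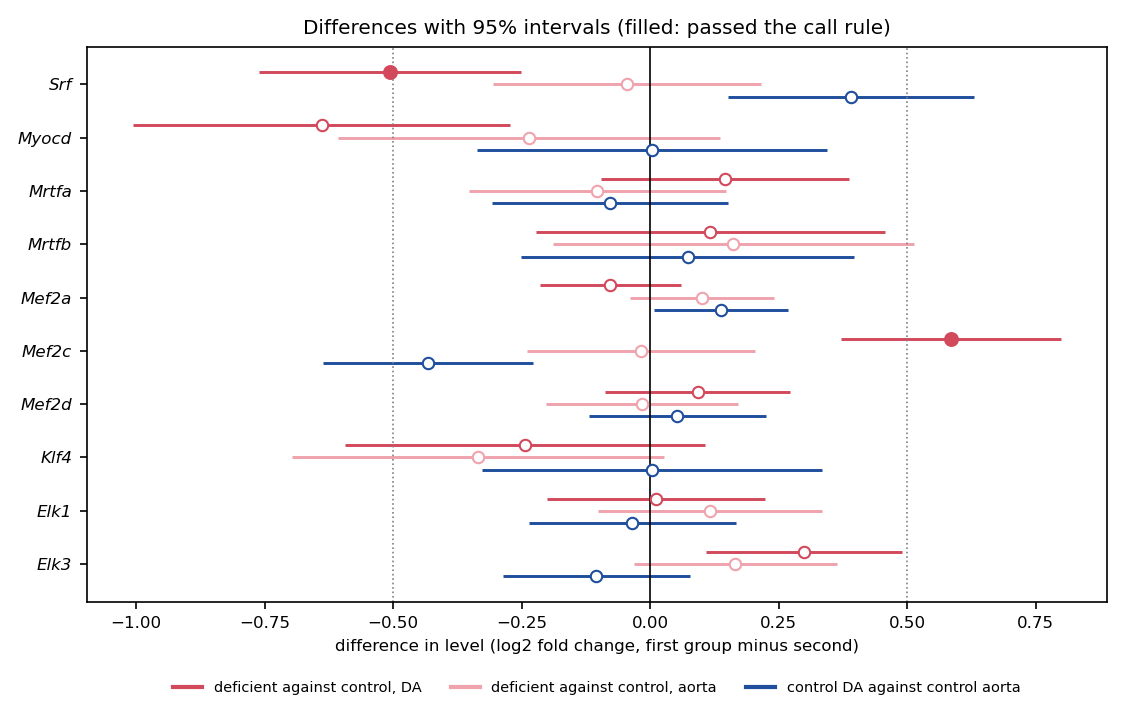
Log2 fold change of each of the 10 genes in 3 comparisons, with 95% intervals from edgeR; filled points passed the call rule and dotted lines mark log2 fold changes of -0.5 and 0.5. Srf (-0.51) and Mef2c (0.58) are filled for Prdm6-deficient against control DA, and no gene is filled in the aorta or between the control vessels.

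The genes downstream of SRF were described by lists that had been put together with earlier results of these data known, so that their direction is not independent evidence. Of 25 SMC contractile genes under SRF-dependent control, 16 fell and 0 rose in Prdm6-deficient DA, where 2.82% of all genes tested fell. Their median log2 fold change was -0.66, against 0.01 over all genes. The summed level of the 25 genes ranged from 17023 to 20258 CPM in Prdm6-deficient DA and from 23821 to 40650 CPM in control DA. These ranges did not overlap, control DA replicate 1 included. The largest decreases were in Des, the muscle intermediate filament desmin (28.4 ± 15.9 against 449 ± 145 CPM, log2 fold change -3.98, edgeR adjusted p = 2.4e-09), Actg2, the enteric smooth muscle actin (log2 fold change -2.39, edgeR adjusted p = 2.6e-09), and Myh11, the smooth muscle myosin heavy chain (538 ± 116 against 2005 ± 566 CPM, log2 fold change -1.90, edgeR adjusted p = 1.9e-07). The smallest called decreases were in Lmod1, a leiomodin that nucleates actin (-0.63), the myosin light chain Myl9 (-0.58) and the myosin phosphatase subunit Ppp1r12b (-0.50). The Ppp1r12b call held in 16 of 23 fits with 1 library left out and in 6 of 12 other alternatives. Acta2, named here after its value was seen, was at 4737 ± 298 CPM (SD, n = 5) against 6698 ± 1403 CPM (SD, n = 7), and its log2 fold change of -0.50 fell just short of the fold threshold (edgeR adjusted p = 0.00351). Acta2 and Actg2 are near-identical in sequence, so the split of reads between them is uncertain. The number called was 17 without control DA replicate 1, 2 in the first series and 9 in the second. Over all genes the same fits called 899, 61 and 147.

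In the aorta 2 of the 25 contractile genes fell and 1 rose, with a median of -0.04, where 2.45% of all genes tested were called. Des was lower there too, at 15.3 ± 3.46 against 32.5 ± 12.4 CPM (log2 fold change -1.08), but did not pass (edgeR adjusted p = 0.0291). Itga8, an integrin chain of SMCs, was at 353 ± 86.9 against 763 ± 132 CPM (log2 fold change -1.11, edgeR adjusted p = 1.0e-05), and Synpo2, an actin-binding protein, stood at -0.85 (edgeR adjusted p = 4.8e-04). Mylk, the myosin light chain kinase, rose by 0.65 (edgeR adjusted p = 0.00759), a call that was not firm. It held in 13 of 23 fits with 1 library left out, being lost without any of the 5 Prdm6-deficient aorta libraries or control aorta replicate 1, 2, 3, 5 or 6 (edgeR adjusted p up to 0.0243), and in 8 of 11 other alternatives, being lost with the animal series as covariate, with the replicate block and without the Cre-carrying control embryo. Between control vessels 16 of the 25 were higher in the DA and 1, Itga8, was lower, where 5.36% of all genes tested were called. The median was 0.84, with large differences in Des (3.79) and Actg2 (2.58). Between Prdm6-deficient vessels 0 of the 25 were called by edgeR, with a median of 0.09. Only 0.267% of all genes tested were called there, so the count of 0 tells little about this list. In the interaction 15 of the 25 were lower and 1, Itga8, was higher, against 2.65% of all genes tested, the median being -0.76. Srf and Myocd thus differed less between the control vessels, by 0.39 and 0.00, than the median of the contractile list did.

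**Figure D4:**
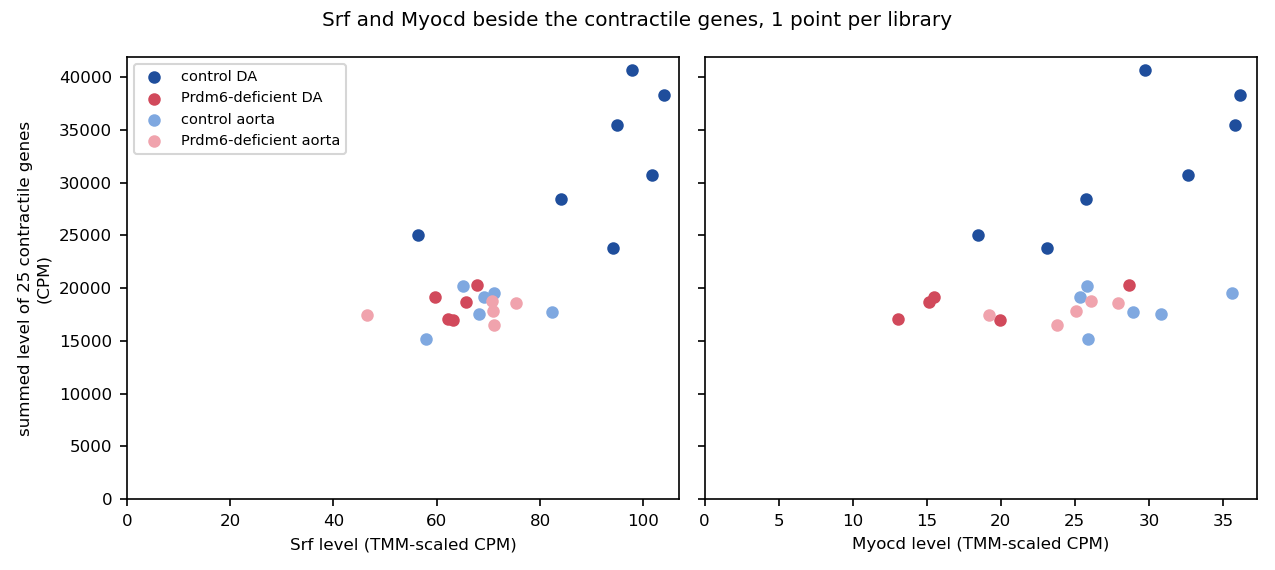
Summed level of the 25 contractile genes, in CPM, against the level of Srf (left) and of Myocd (right) in TMM-scaled CPM, with 1 point for each of the 23 libraries. The 7 control DA libraries lie above all others on the vertical axis (23821 CPM or more), while control DA replicate 1 sits at 56.4 CPM of Srf, among the other groups on the horizontal axis.

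Among 24 cytoskeletal and adhesion genes linked to MRTFs, 6 fell and 1 rose in Prdm6-deficient DA (median -0.24), where 5.43% of all genes tested were called. In the aorta 0 were called by edgeR (median 0.02), against 2.45% of all genes tested. Ankrd1, a stretch-responsive ankyrin repeat protein, stood at -1.78 (edgeR adjusted p = 0.00628) with overlapping groups, and its call held in 17 of 23 fits with 1 library left out and in 7 of 12 other alternatives. It was lost without Prdm6-deficient DA replicate 1, 2, 5 or 6 or control DA replicate 1 or 6, at adjusted p up to 0.0236. The focal adhesion protein Tes stood at -1.75 (edgeR adjusted p = 1.9e-06) and Ccn2, the matricellular connective tissue growth factor, at 508 ± 107 against 1208 ± 237 CPM or -1.25 (edgeR adjusted p = 1.8e-06). Vinculin (Vcl, -0.59) and filamin A (Flna, -0.54) fell by less. Pdlim5, a PDZ and LIM protein of the actin cytoskeleton, rose by 0.59 (edgeR adjusted p = 2.9e-04), although it is on the same list. In the interaction Tes (-2.51), Ccn1 (-1.45) and Ccn2 (-1.34) passed. Ccn1 was at -0.79 in the DA (edgeR adjusted p = 0.00451). In the aorta Tes was higher by 0.76, Ccn1 by 0.66 and Ccn2 by 0.09, none of which passed (edgeR adjusted p of 0.0329, 0.0386 and 0.928). The interaction values of Tes and Ccn1 thus hold a rise in the aorta as well as a fall in the DA. In control DA against control aorta 5 were higher, among them Ankrd1 (2.56), Tes (1.71) and Ccn2 (1.20), and Pdlim5 (-0.62) was lower. Of all genes tested, 5.36% were called there.

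Of 14 immediate early genes linked to the ternary complex factors, 13 passed the filter on low counts. In Prdm6-deficient DA 2 fell and 0 rose (median -0.08), where 5.43% of all genes tested were called. Those that fell were Nr4a1, an orphan nuclear receptor (17.3 ± 6.14 against 47.4 ± 13.2 CPM, log2 fold change -1.46, edgeR adjusted p = 1.7e-05), and Egr1, a zinc finger factor (-1.19, edgeR adjusted p = 5.5e-04). Egr2, named after its values were seen, was at 0 in all 5 Prdm6-deficient DA libraries and from 0 to 2.22 CPM in control DA, where 3 of 7 libraries were also at 0. Against a floor of 3 counts per library it was at least about 4.62-fold lower by the means, and it did not pass the test. This bound covers counting error only, and it is approximate because the floor was not TMM-scaled while the control mean was. The list median was the same with Egr2 at this bound. In the aorta 0 of the 13 were called by edgeR (median -0.20), against 2.45% of all genes tested. Egr1 was lower there too, at -0.81, but did not pass (edgeR adjusted p = 0.0357). In the interaction Nr4a1 (-1.52) passed and Egr1 did not.

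Of 16 relatives, partners and regulators of the 10 genes, 1 rose and 2 fell in Prdm6-deficient DA (median 0.20), where 5.43% of all genes tested were called. Hopx, a homeodomain-only protein that binds SRF and limits its activity, was at 28.1 ± 4.87 against 8.74 ± 3.62 CPM in the DA (log2 fold change 1.68, edgeR adjusted p = 6.0e-06) and at 25.7 ± 3.14 against 6.52 ± 2.04 CPM in the aorta (1.98, edgeR adjusted p = 2.8e-06). It was the only gene of the 16 called in the aorta by edgeR, against 2.45% of all genes tested. The deacetylase Hdac4, a repressor of MEF2 factors, fell by 0.67 in the DA (edgeR adjusted p = 0.00245) and the TEAD factor Tead1 by 0.64 (edgeR adjusted p = 0.00468). The other deacetylases on the list, named here after their values were seen, were higher by sign in the DA and not called. Hdac5 was at 0.42, Hdac7 at 0.18 and Hdac9 at 0.85 (edgeR adjusted p of 4.0e-04, 0.109 and 0.0156), Hdac5 missing only the fold threshold. Against control aorta, control DA had more Hdac4 (0.71), Tead1 (0.87) and Klf2 (0.53), and Abra, a muscle protein that promotes MRTF activity, stood at -1.47. The Abra call held in 18 of 23 fits with 1 library left out and in 6 of 11 other alternatives. Abra was also at -1.46 in Prdm6-deficient against control aorta, which did not pass (edgeR adjusted p = 0.0289). With only the compared groups in the fit, neither Hdac4 nor Tead1 was called in the DA, and with 1 library left out Hdac4 was called in 22 and Tead1 in 16 of 23 fits. In the other alternatives Hdac4 was called in 9 and Tead1 in 8 of 12.

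**Figure D5:**
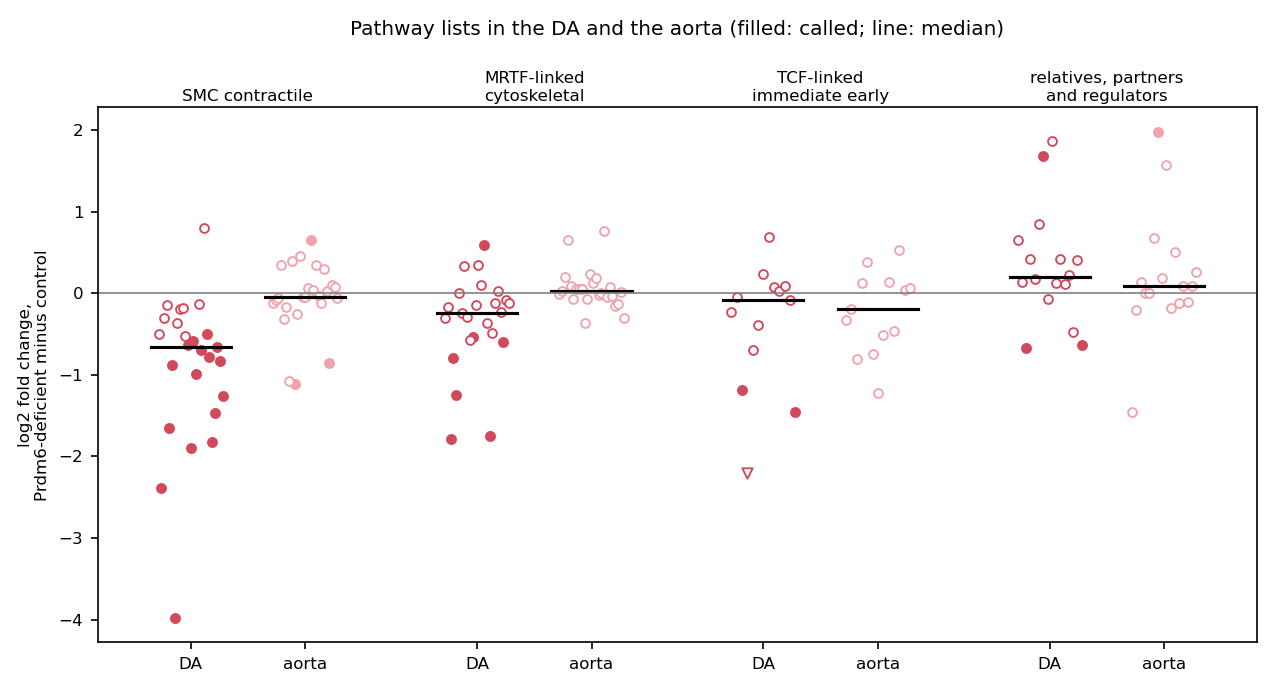
Log2 fold change, Prdm6-deficient minus control, of every tested gene on 4 lists (points) in the DA and in the aorta; filled points were called, black lines are list medians, and the triangle is Egr2 at its bound of -2.21. The contractile list has its median at -0.66 in the DA and -0.04 in the aorta, with Des lowest at -3.98.

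Markers of the other cells that a vessel can hold were counted in the same fits, where 5.43% of all genes tested were called in the DA and 2.45% in the aorta. The 5 smooth muscle markers, all of them also on the contractile list, summed to 9482 to 11508 CPM in Prdm6-deficient DA and 12962 to 22870 CPM in control DA, and 4 of the 5 fell. Endothelial cells, in which Mef2c is also expressed, were followed by 7 markers, of which 0 were called in the DA by edgeR. Their sum was 1020 to 1437 CPM (median 1126) in Prdm6-deficient DA and 846 to 1171 CPM (median 953) in control DA. In the aorta 3 of the 7 (Tek, Tie1 and Emcn) rose. The 7 macrophage markers summed to 91.5 to 187 against 54.9 to 239 CPM with 0 called, and the 8 cardiomyocyte markers to 73.8 to 441 against 26.2 to 1209 CPM with 0 called. Skeletal muscle markers summed to 19.2 to 44.8 against 51.3 to 228 CPM, with 1 of 6 tested lower (Ckm) and Myog at 0 in every DA library. Melanocyte markers summed to 2.44 to 4.96 against 32.2 to 229 CPM, with 4 of 6 lower, and Schwann cell markers to 53.0 to 115 against 12.9 to 172 CPM with 0 of 6 called. The 172 CPM was control DA replicate 7, and the other 6 control DA libraries, at 12.9 to 28.4 CPM, lay below all 5 Prdm6-deficient ones. Neuron markers (1 of 5 tested, Elavl4) and adventitial fibroblast markers (1 of 6, Lum) each had 1 gene higher in the DA and again in the aorta, and of 4 brown adipocyte markers tested 2 (Plin1 and Adipoq) were lower in the DA, while 0 of 6 red blood cell markers were called in either vessel. The red blood cell markers summed to 24848 to 137645 CPM in Prdm6-deficient DA, highest in replicate 1, and to 13161 to 66579 CPM in control DA. In the aorta they summed to 16152 to 57589 CPM in Prdm6-deficient and 26771 to 136518 CPM in control libraries. The part of these cells in the values of Srf, Myocd and Mef2c was not tested.

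The genes most like Srf and Myocd over the 23 libraries were found by the root mean square difference of log2 CPM, each gene centred on its own mean, among 12513 genes. For Srf these were Aplp2 and Mrvi1 (0.16 each), Tead3 and Pdlim7 (0.17 each) and Ddr1 (0.17), where the median gene was at 0.41 and Srf itself varied about its mean by 0.29. Of these 5, Tead3 was called in the DA, with a log2 fold change of -0.61. For Myocd they were Auts2, Nptxr, Rbl1, Ppp1r12b and Bcor (0.23 to 0.25, median gene 0.48), and Ppp1r12b, the myosin phosphatase subunit, is also on the contractile list. For Mef2c, added after its values were seen, they were Pde5a, Cdc42se1, Nudt4, Hdac5 and Bloc1s1 (0.17 to 0.18, median gene 0.40). Hdac5, which like Hdac4 represses MEF2 factors, was at 0.42 in the DA and Hdac4 at -0.67. These likenesses share the libraries and the groups and are descriptions.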

How the data were processed

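RNA from the DA and the ascending aorta was sequenced in 24 labelled samples, and the 23 libraries that had a column were used. The authors aligned the reads to mm10 with STAR, and the deposited values are expected counts per gene estimated by RSEM, not normalized. Versions of these tools are not given in the sources used here. Of all values 92.3% were whole, and the rest were rounded. Gene models came from GENCODE release M21, matched by identifier (54723 of 54752), and promoters from RefSeq on GRCm38.p6.

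The 23 libraries were fitted together in edgeR 4.0.16 (R 4.3.3) with filterByExpr, TMM scaling, 1 mean per group and the quasi-likelihood test, and p-values were adjusted by Benjamini-Hochberg over 16463 genes. The standard error is the log2 fold change divided by the square root of F. CPM are TMM-scaled. DESeq2 1.42.0, limma 3.58.1 (voom), other scalings, filters, sample sets and blocks, and leaving out each library in turn were the alternatives. The procedure was tested on simulated data. Replicate numbers were checked for pairing (correlations of same-numbered libraries -0.05 to 0.16) and were not taken to pair libraries.

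Named genes are the 10 genes, Prdm6, the called genes with the 3 lowest and 3 highest fold changes of each list in each comparison, and the 5 genes most like Srf and Myocd. The values of 1 gene that this rule names are not reported here. The genes and lists were chosen with earlier results of these data known. Intervals and floors cover counting error or the spread between libraries only. RSEM divides reads between near-identical genes.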

Additional observations from a re-analysis of the deposited data

Results flagged for a closer look

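In 40 groups of libraries (10 genes in 4 groups), 3 had a library at one end farther from its neighbours than Dixon's limit allows, where chance gives about 1 in 20. Srf in control DA replicate 1 was the lowest of its group at 56.4 CPM, with a gap to the next library of 0.580 of the whole range. This library also had the highest cardiomyocyte (1209 CPM) and skeletal muscle (228 CPM) marker sums of the control DA group, and the part of these in its Srf level was not tested. Srf in Prdm6-deficient aorta replicate 3 was the lowest of its group at 46.5 CPM, with a gap of 0.835 of the range. Mrtfa in control DA replicate 7 was the highest of its group at 56.8 CPM, with a gap of 0.626 of the range, and the Schwann cell markers of that library summed to 172 CPM against 12.9 to 28.4 CPM in the other control DA libraries.

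Mrtfa stood at a log2 fold change of 0.15 in the DA (edgeR adjusted p = 0.511) and -0.10 in the aorta (edgeR adjusted p = 0.866), neither of which passed, with every Prdm6-deficient DA library above the control DA mean and every Prdm6-deficient aorta library below the control aorta mean. The difference between the effects was 0.25 on the log2 scale, and its interaction test did not pass (edgeR adjusted p = 0.550).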

How the results depend on the processing

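Of the 10 genes, 2 were called in the DA (Srf and Mef2c). The number was 1, Mef2c alone, with limma-voom, with only the compared groups in the fit, with limma-voom and the embryo as random block, without the pooled libraries and without the Cre-carrying control embryo, and it was 0 within either animal series. With the replicate block it was also 1, Srf being at an adjusted p of 0.0211, although same-numbered libraries did not deviate together (1 of 5 pairs in the DA correlated over 0.1, and 1 of 5 best with its own number). Leaving out each library in turn gave 1 to 3. In the interaction 0 of the 10 were called, and 1, Mef2c, with DESeq2, limma-voom and limma-voom with the embryo as random block, with 0 to 1 when each library was left out. In the other 3 comparisons the number stayed at 0 under every alternative that was run. Of 1680 alternative values for the 10 genes, 20 lost and 10 gained a call, 0 called values changed sign, and 73 that were not called had the other sign. Of 1797 for the other named genes, 125 lost a call. For the order of levels, 3 pairs of neighbours in control DA did not overlap, and 2 with the mean transcript length. Over all genes, 894 were called in the DA (61 and 147 within the first and second series), 404 in the aorta (702 with only the compared groups), 882 between control vessels (550 within the second series) and 44 between Prdm6-deficient vessels (137 with DESeq2, 83 with only the compared groups, 69 with the embryo block, 16 with the replicate block, 15 without the pooled libraries, 22 to 58 with each library left out). In the embryo block each pooled library had a level of its own, also where its embryos gave aorta libraries. The smaller sets of libraries hold fewer samples, and for the other changes the cause was not tested. No value within the first series could be had for the aorta or the control vessels, which hold 1 control aorta library there. With 5 and 7 libraries, the change of Myocd in the DA is known only to the width of its interval, -1.01 to -0.27.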
